A study of Mus musculus with 8 samples.

Results

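The genes described here encode the UDP-glycosyltransferases (UGTs) and the glutathione transferases (GSTs), the enzyme families that attach a sugar or glutathione to drugs, hormones and reactive lipids in the liver. They are the genes of the deposited table whose symbols begin with *Ugt1a*, *Ugt2a*, *Ugt2b* or *Ugt3a*, or with *Gsta*, *Gstk*, *Gstm*, *Gsto*, *Gstp* or *Gstt*, followed by a number. The rule used names only and found 41 of the 55385 genes of the table, 20 *Ugt* genes and 21 *Gst* genes. Liver RNA of 8 male mice was sequenced, 4 with deletion of *Usp39* in hepatocytes (*Usp39*-HKO) and 4 control littermates, which the labels give as WT. All mice were 5 weeks old, came from a C57BL/6J background and were fasted for 16 h. The *Usp39*-HKO mice carried *Usp39* alleles with loxP sites around an exon (*Usp39* fl/fl) and Cre driven by the *Albumin* promoter. The paper calls the deletion hepatocyte-specific, and whether other liver cells keep the gene was not tested here. The alleles of the control littermates are not given in the sources used here. *Usp39* encodes a component of the U4/U6.U5 particle of the spliceosome, and the comparison asks how its loss from hepatocytes changes liver RNA.

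A UGT moves the sugar of a UDP-sugar onto its substrate, and members of UGT1A and UGT2B use UDP-glucuronic acid to make bilirubin, steroids and phenols soluble. UGT3A enzymes use other UDP-sugars, UDP-N-acetylglucosamine for UGT3A1 and UDP-glucose or UDP-xylose for UGT3A2. A GST joins the thiol of glutathione to an electrophile, and the alpha (*Gsta*), mu (*Gstm*), pi (*Gstp*), theta (*Gstt*), omega (*Gsto*) and kappa (*Gstk*) classes differ in substrate. Many of these genes are known targets of the transcription factors NRF2, AHR, CAR and PXR, and several differ between male and female mouse liver.

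Some members are so alike that reads may not be assigned to the right gene. *Gsta1* and the predicted gene *Gm3776*, which is no member, differ at 2 of 672 coding bases (99.7% identity), and *Gsta1* and *Gsta2* differ at 17 of 672 aligned positions (97.5%). The coding bases of *Gsta1* and *Gsta2* are identical from the start codon through base 196, so a 150-base read inside that stretch matches both. The 150-base coding window in which *Gsta1* and *Gsta2* differ most, coding bases 359 to 508, is shown because it holds the bases that tell them apart; it has 6 differences, written in capitals, and none between *Gsta1* and *Gm3776*. The sequences are those of GENCODE vM21 transcripts on GRCm38.
*Gsta1*: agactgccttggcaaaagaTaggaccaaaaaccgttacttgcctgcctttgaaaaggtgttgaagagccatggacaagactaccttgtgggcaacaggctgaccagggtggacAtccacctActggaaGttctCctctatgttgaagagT
*Gsta2*: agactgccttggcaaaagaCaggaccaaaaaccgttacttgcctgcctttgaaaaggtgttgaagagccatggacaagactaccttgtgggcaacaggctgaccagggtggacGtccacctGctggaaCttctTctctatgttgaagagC
*Gm3776*: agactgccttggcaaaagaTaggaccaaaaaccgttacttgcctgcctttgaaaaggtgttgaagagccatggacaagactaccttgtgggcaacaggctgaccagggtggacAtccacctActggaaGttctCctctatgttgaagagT

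Sequence just before the transcription start is shown for the genes with the largest rises, *Gsta1* and *Gstm3*, and for *Gsta3*, the most abundant *Gsta* gene, which did not pass the test. The sequences are from RefSeq's start sites on GRCm38.p6 and leave out bases inside any GENCODE vM21 exon. Capitals mark a match to TGACNNNGC, the core letters of the antioxidant response element that NRF2 binds, searched on both strands, and of the 3 stretches that of *Gsta3* holds a match. *Gsta3* lies on the + strand at chr1:21240335-21240584, *Gsta1* on the + strand at chr9:78230419-78230655 and *Gstm3* on the - strand at chr3:107969284-107969424.
*Gsta1*: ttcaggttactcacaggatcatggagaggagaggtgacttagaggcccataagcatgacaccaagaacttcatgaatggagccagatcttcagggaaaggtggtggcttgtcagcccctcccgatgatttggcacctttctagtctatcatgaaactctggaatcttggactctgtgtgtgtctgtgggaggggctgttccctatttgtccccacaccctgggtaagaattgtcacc
*Gstm3*: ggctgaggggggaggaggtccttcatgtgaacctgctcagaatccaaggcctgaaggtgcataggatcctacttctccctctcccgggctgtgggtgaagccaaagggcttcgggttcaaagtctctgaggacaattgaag
*Gsta3*: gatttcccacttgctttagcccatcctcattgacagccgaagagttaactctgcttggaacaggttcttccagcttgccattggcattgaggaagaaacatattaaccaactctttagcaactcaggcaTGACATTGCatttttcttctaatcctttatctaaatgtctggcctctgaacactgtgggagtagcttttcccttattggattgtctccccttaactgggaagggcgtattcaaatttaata

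Of the members, 37 had a start site window of 300 bases (250 before the start and 50 after it). TGACNNNGC was in a window of *Gsta3*, *Gstm5* and *Gstm7*, 3 of these 37 genes, none of which passed the test described below, and in 12.4% of all 32851 windows. GCGTG, the core letters of the dioxin response element that AHR binds, was in windows of 7 of the 37 members on either strand. Among them were 4 of the 7 that rose and have a window (*Gsta1*, *Gsta2*, *Gstm1* and *Gstp3*). The others were *Gstm5*, *Gstp1* and *Ugt1a5*, which did not pass the test, and 0 of the 8 that fell and have a window held it. Members are counted here as genes, and the 37 genes have 44 windows. It was in 32.4% of all windows, and the longer TTGCGTG, which contains it, was in 0 member windows and in 1.16% of all windows. The match of *Gsta1* spans the start site and lies outside the bases printed above. These are matches of letters in a short window and not binding sites.

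The libraries held from 8589636 to 10418450 gene counts, at which 3 counts are 0.288 to 0.349 CPM, the unit that scales counts to the library total. Levels are given as deposited FPKM, which scale counts to exon length and library total, always in the order A468, A472, A473 and A475 for the control mice and A469, A470, A471 and A474 for the *Usp39*-HKO mice. *Usp39* was 9.58 ± 0.71 FPKM in control and 8.44 ± 0.29 in *Usp39*-HKO mice (SD, n = 4), and its adjusted p of 0.0212 became 0.0615 without A474 and 0.0547 without A475. These FPKM cover the whole gene, while the deletion removes only the exon between the loxP sites, so they do not measure its extent. The paper assessed the deletion by immunoblots of liver, other tissues and primary hepatocytes, and by qPCR of *Usp39* in liver. Control mouse A475 had a summed FPKM of 591 over 8 pancreatic acinar markers, against 0.405 to 2.45 in the other mice, and *Usp39*-HKO mouse A474 had the highest *H19* (835 FPKM, against 32.5 to 90.1 in the other *Usp39*-HKO mice) and *Afp* (50.9 FPKM, against 1.41 to 3.0), which mark fetal liver. The hepatocyte markers summed to between 12400 and 14390 FPKM in control and between 11300 and 15650 in *Usp39*-HKO mice, and none of the 4 in the table passed the test. In whole liver RNA, fewer cells of a type and less RNA per cell cannot be told apart.

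Each gene was tested by the quasi-likelihood method of edgeR on deposited counts. The test took in 14340 genes whose FPKM reached 0.5 in 4 or more mice, with Benjamini-Hochberg adjustment over all of them. The fold changes are fitted with TMM factors, which set the change of most genes near 0 (median -0.0015 on the log2 scale). FPKM use no such factor, and without it the median over genes was shifted toward *Usp39*-HKO mice. The shift was 0.17 on log2(FPKM + 1) and 0.23 in the edgeR fit without TMM factors. A member with equal FPKM in both groups therefore has a fitted change below 0, by about 0.23. Where the groups of 4 did not overlap, the two-sided exact permutation test on FPKM gave p = 0.029, the smallest value that its 70 assignments allow.

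Most *Gst* genes that passed the test were higher in *Usp39*-HKO mice, and all *Ugt* genes that passed were lower. Of the 19 *Gst* genes tested, 8 rose and 2 fell, with a median log2 fold change of 0.38, while 0 of the 15 *Ugt* genes tested rose and 8 fell, with a median of -0.67. The 8 include *Gsta1*, which entered the test only through the *Usp39*-HKO mice and so had to differ, and the other 7 do not depend on this. Together 18 of 34 tested members (52.9%) passed an adjusted p of 0.05, where 22.5% of all genes tested did, 10.9% as higher and 11.6% as lower. The fold changes of the 19 *Gst* genes were positive for 10 and negative for 9 in that fit (13 and 6 without TMM factors). Each of the 15 *Ugt* fold changes was negative in that fit, and 12 of the 15 were negative without TMM factors. At the cutoff that the study used, an unadjusted p under 0.05 and a log2 fold change over 0.5 or under -0.5, 8 *Gst* genes were higher and 1 lower, and 10 *Ugt* genes were lower and 0 higher, beside 12.1% of all genes higher and 9.62% lower. FPKM of the groups did not overlap for 8 *Gst* genes, all higher in *Usp39*-HKO mice, and for 4 *Ugt* genes, all lower, where 23.9% of all genes were higher without overlap and 4.81% lower. Without TMM factors the split of the members was 9 higher and 5 lower in place of 8 and 10, since the median of all genes moved to 0.23, and limma on log2(FPKM + 1) gave 9 and 3. Without A474 and A475 together, 6 *Gst* genes were higher, 0 were lower and 5 *Ugt* genes were lower.

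**Figure D1:**
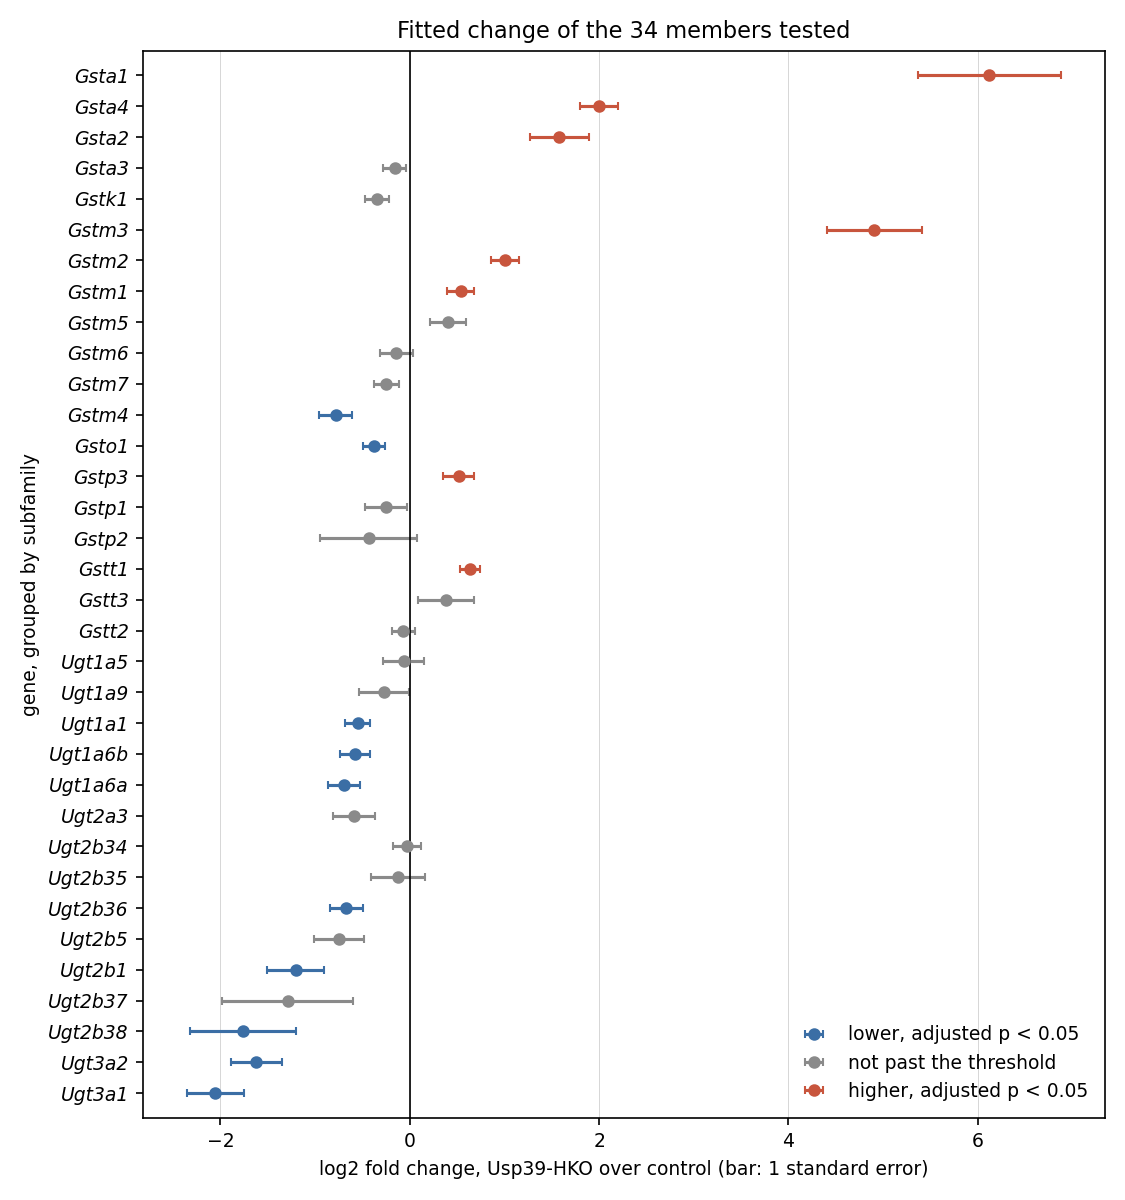
Fitted log2 fold change between *Usp39*-HKO and control livers for the 34 members tested (points, with bars of 1 standard error), grouped by subfamily and colored by whether the adjusted p was under 0.05. *Gsta1* (6.12) and *Gstm3* (4.91) lie far to the right of every other gene, and the 15 *Ugt* genes lie at or left of 0, from -0.03 for *Ugt2b34* to -2.05 for *Ugt3a1*.

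Among the alpha class, 3 of the 4 genes rose and the most abundant did not. *Gsta1* (ENSMUSG00000074183, chr9:78230656-78242684) had 4, 2, 1 and 1 counts in the control mice and 33, 208, 147 and 339 counts in the *Usp39*-HKO mice. Its FPKM were 0.456, 0.211, 0.122 and 0.10 in the former and 3.55, 21.3, 16.1 and 37.4 in the latter. All *Usp39*-HKO mice were above all controls, A469 being the lowest of them by far and A474 the highest. The log2 fold change was 6.12 ± 0.76 (SE, adjusted p = 0.000716), a value that depends on the near absence of counts in controls. The ratio of counts per total was 88.9 (exact 95% interval 44.9 to 207, covering counting error only), from 727 counts in *Usp39*-HKO and 8 in control mice. Since all 4 control mice were below the filter on low levels, *Gsta1* was tested only because of its level in *Usp39*-HKO mice, and its fold change and adjusted p are a description. The near-identical *Gm3776* had 0, 1, 1 and 0 counts in the control and 20, 95, 124 and 192 in the *Usp39*-HKO mice, lowest in A469 and highest in A474 as for *Gsta1*.

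*Gsta2* was at 9.07, 4.29, 5.74 and 6.93 FPKM in control mice and at 13.5, 22.0, 16.6 and 41.7 in *Usp39*-HKO mice. The groups did not overlap, and A474 was again the highest. The log2 fold change of *Gsta2* was 1.58 ± 0.31 (SE, adjusted p = 0.00520), 2.99-fold higher. Since *Gsta1*, *Gsta2* and *Gm3776* share most of their sequence (the coding window above), their counts were also summed: the sum was between 5.79 and 12.2 CPM with TMM factors in control mice and between 21 and 88.6 in *Usp39*-HKO mice, without overlap. *Gsta1* and *Gm3776*, below 0.5 FPKM in every control mouse, passed the filter only through the *Usp39*-HKO mice. The separation of the sum is therefore a description and does not bear on *Gsta2* alone. *Gsta4*, whose enzyme conjugates the lipid peroxidation product 4-hydroxynonenal, shares no long near-identical stretch with another gene. *Gsta4* had FPKM of 14.3, 14.7, 12.5 and 11.9 in control and 41.2, 61.2, 53.6 and 99.0 in *Usp39*-HKO mice, a log2 fold change of 2.0 ± 0.20 (SE, adjusted p = 0.000317). Its lowest *Usp39*-HKO value was above the highest control value, and A469 and A474 were again the lowest and the highest. *Gsta3*, the main alpha class gene of control liver, had 90.0, 78.9, 71.9 and 86.7 FPKM in control and 94.3, 77.0, 77.9 and 95.4 in *Usp39*-HKO mice. Its groups overlapped and its log2 fold change of -0.16 ± 0.12 (SE, adjusted p = 0.386) did not pass the test, with a positive sign on the FPKM scale and without TMM factors. The share of *Gsta3* in the summed FPKM of the 4 *Gsta* genes went from between 79.1% and 82.1% in control mice to between 34.9% and 61.8% in *Usp39*-HKO mice.

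**Figure D2:**
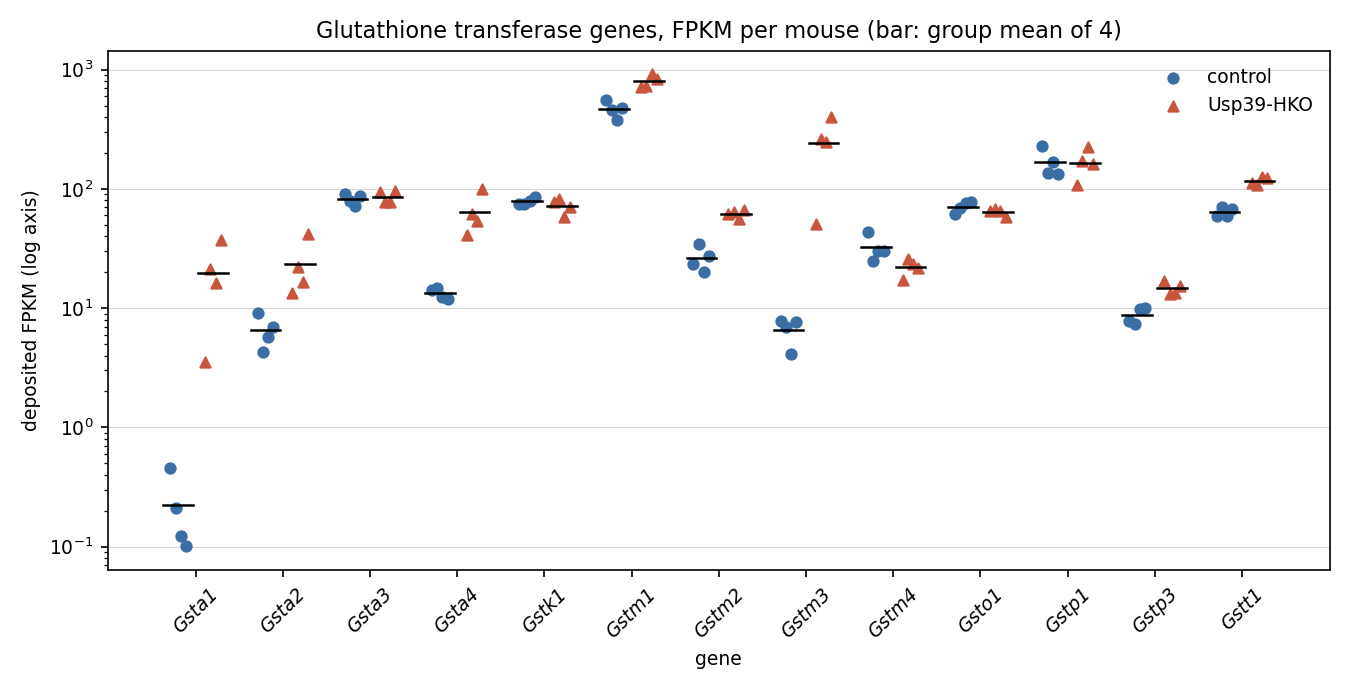
Deposited FPKM on a log axis for 13 *Gst* genes in each of the 4 control mice (blue circles) and 4 *Usp39*-HKO mice (orange triangles), with the group mean as a bar. *Gsta1*, *Gsta2*, *Gsta4*, *Gstm1*, *Gstm2*, *Gstm3*, *Gstp3* and *Gstt1* show no overlap between groups, and *Gstm3* in *Usp39*-HKO mice spreads from 50.9 to 400.4 FPKM.

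The mu class held the most abundant member of both families and the gene with the largest rise that was well counted in both groups. *Gstm3* (ENSMUSG00000004038, chr3:107963696-107969283) was at 7.81, 6.93, 4.08 and 7.61 FPKM in control mice and at 50.9, 262, 249 and 400.4 in *Usp39*-HKO mice. Every *Usp39*-HKO mouse was above every control, with A469 well below the other 3. The log2 fold change was 4.91 ± 0.50 (SE, adjusted p = 0.000326), 30.0-fold higher, between 4.61 and 5.26 when 1 mouse was left out. By mean FPKM *Gstm3* was at rank 26 of the 41 members in control and rank 2 in *Usp39*-HKO mice, and its share of the summed *Gstm* FPKM was between 0.851% and 1.27% in control mice and between 5.68% and 29.0% in *Usp39*-HKO mice. *Gstm1*, at rank 1 in both groups, had 557, 456, 379.8 and 477 FPKM in control and 711, 735, 913 and 834 in *Usp39*-HKO mice. The ranges did not overlap, and the log2 fold change was 0.54 ± 0.14 (SE, adjusted p = 0.0213). That call was lost without A471 (adjusted p = 0.0619), A473 (0.0755) or A475 (0.0597). *Gstm1* shares sequence of at least 97% identity over 79.5% of a transcript with the pseudogenes *Gstm2-ps1* and *Gm8834*, and *Gstm3* over 43.3% with *Gm8834*.

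*Gstm2* had 23.2, 34.7, 19.9 and 27.2 FPKM in control and 61.5, 63.7, 56.2 and 66.3 in *Usp39*-HKO mice. The *Usp39*-HKO values lay close together and above all controls, and the log2 fold change was 1.0 ± 0.15 (SE, adjusted p = 0.00141). *Gstm4* went the other way, with 43.9, 24.8, 30.1 and 30.2 FPKM in control mice and 17.3, 25.8, 23.6 and 21.7 in *Usp39*-HKO mice. Its groups overlapped through A472 and A470, and the log2 fold change was -0.78 ± 0.18 (SE, adjusted p = 0.00963), with an adjusted p of 0.0616 by limma on log2(FPKM + 1) and 0.0645 without A474 and A475. The other mu genes did not pass the test: *Gstm5* (log2 fold change 0.40, adjusted p = 0.152), *Gstm6* (-0.15, adjusted p = 0.593) and *Gstm7* (-0.25, adjusted p = 0.210). All 7 *Gstm* genes lie within 149.1 kb of chromosome 3, and in chromosome order *Gstm3*, *Gstm2* and *Gstm1*, which rose, are neighbors between *Gstm6* and *Gstm4*. The rises in that stretch were unequal, and the coding sequence of *Gstm3* is closer to that of *Gstm2* (85.1% identity) than to *Gstm1* (80.0%), *Gstm6* (79.5%) or *Gstm4* (79.1%).

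**Figure D3:**
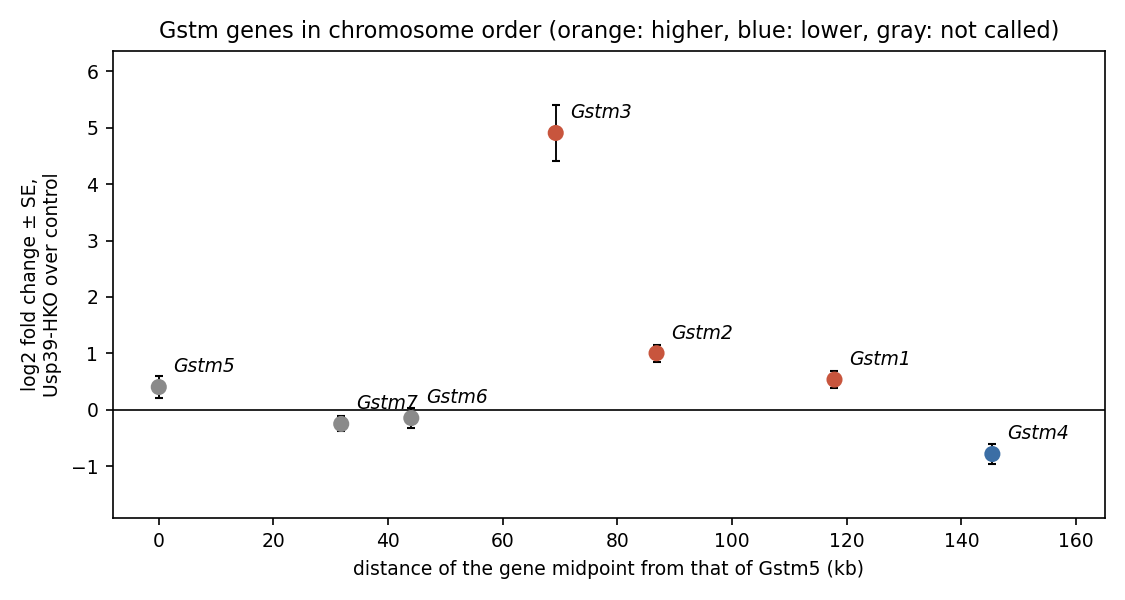
Fitted log2 fold change (points, with bars of 1 standard error) of the 7 *Gstm* genes against the distance of each gene's midpoint from that of *Gstm5*, in kb. The 3 genes that rose lie next to each other, *Gstm3* at 4.91, *Gstm2* at 1.0 and *Gstm1* at 0.54, with *Gstm4* at -0.78 beyond them.

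Markers of other liver cell types rose in the same mice. All 4 cholangiocyte markers tested rose, their summed FPKM (5 markers) being between 26.4 and 28.7 in control and between 64.1 and 285 in *Usp39*-HKO mice, lowest in A469 and highest in A474 as for *Gsta1*, *Gsta2*, *Gsta4* and *Gstm3*. Of 5 stellate cell and fibroblast markers 4 rose (summed FPKM 55.6 to 65.6 against 94.3 to 209.9), as did 3 of 5 macrophage markers (209.8 to 257 against 359 to 519.9). In *Usp39*-HKO livers of this age the paper reported fibrosis, but neither inflammatory cells nor activated progenitor cells in stained sections. Marker RNA and stained cells are different measures, and cell numbers were not tested here. None of these marker lists had a marker at 0 in all mice, and their part in the *Gst* rises was not tested. Of the endothelial markers 2 of 4 fell, and of the erythroid markers 3 of 3. Over the 8 members that rose, A474 was the highest *Usp39*-HKO mouse for 5 and A469 the lowest for 5. Without A474 and A475, *Gsta1*, *Gsta2*, *Gsta4*, *Gstm2*, *Gstm3* and *Gstt1* kept an adjusted p under 0.05.

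Of the remaining classes, *Gstt1*, a theta class gene whose enzyme acts on small halogenated compounds, had 58.8, 70.9, 58.7 and 67.3 FPKM in control and 112, 108, 125 and 123 in *Usp39*-HKO mice. The spread within each group was small and the groups lay far apart, with a log2 fold change of 0.64 ± 0.10 (SE, adjusted p = 0.00211). *Gstt2* (log2 fold change -0.07, adjusted p = 0.721) and *Gstt3* (0.38, adjusted p = 0.389) did not pass the test. *Gstp3*, of the pi class, had 7.80, 7.33, 9.74 and 10 FPKM in control and 16.9, 13.2, 13.3 and 15.2 in *Usp39*-HKO mice. Although the groups did not overlap, the log2 fold change of 0.51 ± 0.17 (SE, adjusted p = 0.0444) was close to the threshold and the call held in only 1 of the 8 fits that left out a mouse, the fit without A470. In the other 7 the adjusted p was between 0.0628 (without A475) and 0.115 (without A468), with 0.0763 without A469, 0.0644 without A471, 0.0728 without A474, 0.0905 without A472 and 0.0665 without A473. *Gstp1*, the most abundant pi gene, was at 231, 136, 169 and 133 FPKM in control and 107, 172, 223 and 162 in *Usp39*-HKO mice. These ranges overlapped almost wholly (log2 fold change -0.25 ± 0.22 SE, adjusted p = 0.457). *Gstp2*, which differs from *Gstp1* at 12 of 633 coding bases, had between 0.555 and 4.58 FPKM (log2 fold change -0.44, adjusted p = 0.588), and without A470 its values were -1.27 and 0.0495.

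The omega and kappa classes did not rise. *Gsto1*, whose enzyme reduces dehydroascorbate, had 61.2, 68.5, 76.5 and 77.9 FPKM in control and 64.6, 67.3, 65.1 and 58.3 in *Usp39*-HKO mice. The FPKM overlapped widely. Its log2 fold change was -0.38 ± 0.12 (SE, adjusted p = 0.0364), and the call was lost without A471 (adjusted p = 0.0634), A473 (0.112), A474 (0.0924) or A475 (0.104) and without TMM factors (0.311). *Gstk1*, which encodes a GST of mitochondria and peroxisomes, had 74.3, 75.3, 79.7 and 84.9 FPKM in control and 78.3, 82.9, 58.0 and 70.7 in *Usp39*-HKO mice. It did not pass the test (log2 fold change -0.35 ± 0.12 SE, adjusted p = 0.0671) unless A469 (adjusted p = 0.0400) or A470 (0.0440) was left out.

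Both UGT3A genes fell. *Ugt3a1* (ENSMUSG00000072664, chr15:9276888-9315032) had 24.4, 19.2, 20.7 and 25.0 FPKM in control mice and 4.97, 6.61, 10.4 and 3.0 in *Usp39*-HKO mice. No *Usp39*-HKO mouse reached a control value, and A474 was the lowest. The log2 fold change was -2.05 ± 0.30 (SE, adjusted p = 0.00137), 4.15-fold lower. *Ugt3a2*, its neighbor within 94.1 kb of chromosome 15, had 151, 118, 146 and 156 FPKM in control and 70.6, 59.6, 57.9 and 26.3 in *Usp39*-HKO mice. The groups were again apart with A474 lowest, and the log2 fold change was -1.62 ± 0.27 (SE, adjusted p = 0.00263), 3.08-fold lower. The coding sequences of both genes are 93.3% identical, and neither shares a stretch of 150 bases at 97% identity with another gene. Both calls held in all 16 alternative fits.

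In the UGT2B subfamily, 3 of 7 genes fell and the others did not pass the test. *Ugt2b1*, among the most abundant members in control liver (rank 3), had 201, 181, 186 and 154 FPKM in control and 72.4, 119, 132 and 41.8 in *Usp39*-HKO mice. The groups did not overlap, and the *Usp39*-HKO mice spread more widely than the control mice. The log2 fold change of *Ugt2b1* was -1.21 ± 0.30 (SE, adjusted p = 0.0161). *Ugt2b36* had 206, 187, 161 and 153 FPKM in control and 130.5, 134, 156 and 99.0 in *Usp39*-HKO mice. A471 lay within the control range, and the log2 fold change of -0.67 ± 0.17 (SE, adjusted p = 0.0173) became -0.58 without A468 (adjusted p = 0.0535). *Ugt2b38* was far lower and variable, with 10, 7.84, 6.16 and 0.812 FPKM in control and 1.41, 1.5, 3.49 and 2.23 in *Usp39*-HKO mice. The lowest mouse of all was control A475, and the log2 fold change of -1.76 ± 0.56 (SE, adjusted p = 0.0421) did not keep its call without A468 (adjusted p = 0.123), A469 (0.0751), A470 (0.0918), A472 (0.0854), A473 (0.0849) or A474 (0.0935). *Ugt2b38* did not pass either by DESeq2 (adjusted p = 0.0544), without TMM factors (0.0537) or by limma on log2(FPKM + 1) (0.183) and log2(FPKM + 0.1) (0.249). *Ugt2b5*, the most abundant *Ugt* gene, had 341, 233, 223 and 197 FPKM in control and 115, 223, 238 and 118 in *Usp39*-HKO mice. A469 and A474 were below all controls while A470 and A471 were within them, and the log2 fold change of -0.75 ± 0.27 (SE, adjusted p = 0.0646) passed when A471 was left out (adjusted p = 0.0362), by DESeq2 (0.0239) and with no filter on low levels (0.00898), and in no other alternative. *Ugt2b34* (log2 fold change -0.03, adjusted p = 0.910) and *Ugt2b35* (-0.12, adjusted p = 0.800) differed little in the fit, and *Ugt2b37* (-1.29, adjusted p = 0.209) varied from 0.390 to 9.80 FPKM and gave -2.24 (adjusted p = 0.0438) without A471. The 7 *Ugt2b* genes span 534.4 kb of chromosome 5, where *Ugt2b1* lies next to *Ugt2b34*. *Ugt2a3*, inside the same span, had 75.9, 57.8, 71.4 and 68.6 FPKM in control and 65.0, 51.5, 62.7 and 31.9 in *Usp39*-HKO mice. Its groups overlapped, and the log2 fold change of -0.59 ± 0.22 (SE, adjusted p = 0.0762) passed without A469 (adjusted p = 0.0338), by DESeq2 (0.0427) and with no filter (0.0174).

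**Figure D4:**
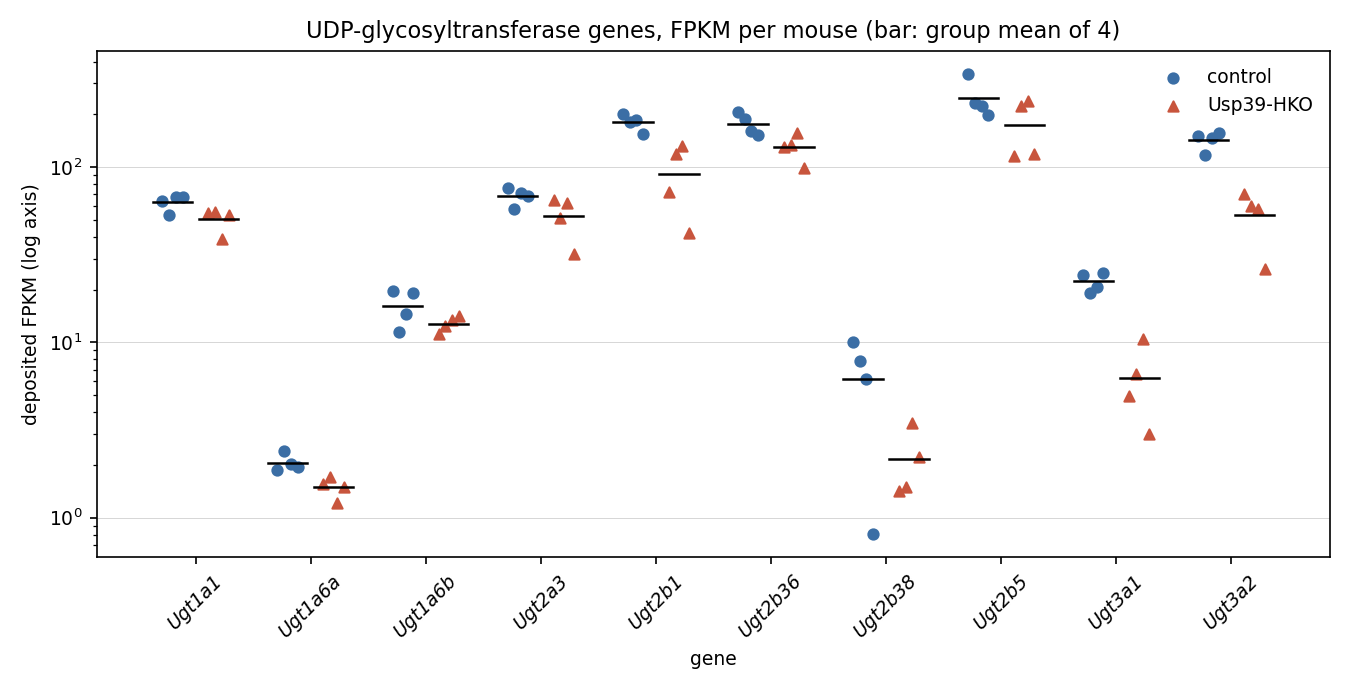
Deposited FPKM on a log axis for 10 *Ugt* genes in each of the 4 control mice (blue circles) and 4 *Usp39*-HKO mice (orange triangles), with the group mean as a bar. *Ugt1a6a*, *Ugt2b1*, *Ugt3a1* and *Ugt3a2* show no overlap between groups, and control mouse A475 (0.812 FPKM) lies below every other mouse for *Ugt2b38*.

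The UGT1A genes of chromosome 1 share their last exons, and each member's exons overlap those of other *Ugt1a* genes on the same strand over 50.3% to 60.6% of their bases, so their counts rest on the part outside the overlap or on how the counting treated it, which the sources used here do not give. Between 1 and 11 counts for *Ugt1a2* and *Ugt1a10* beside at least 823 for *Ugt1a1* show that shared-exon reads were not credited to every gene. *Ugt1a1*, which encodes the bilirubin transferase, had 64.4, 53.3, 67.1 and 67.8 FPKM in control and 54.9, 55.4, 38.8 and 53.5 in *Usp39*-HKO mice. A471 was below all controls and the others overlapped them, and the log2 fold change was -0.55 ± 0.13 (SE, adjusted p = 0.0141). *Ugt1a6a* and *Ugt1a6b* encode phenol transferases and differ at 26 of 1596 coding bases. *Ugt1a6a* had 1.87, 2.41, 2.02 and 1.94 FPKM in control and 1.55, 1.71, 1.22 and 1.49 in *Usp39*-HKO mice, without overlap (log2 fold change -0.70 ± 0.17 SE, adjusted p = 0.0139). *Ugt1a6b* had 19.7, 11.5, 14.6 and 19.1 FPKM in control and 11.2, 12.4, 13.5 and 14.1 in *Usp39*-HKO mice. Its groups overlapped, and the log2 fold change of -0.58 ± 0.16 (SE, adjusted p = 0.0232) lost its call without A468 (adjusted p = 0.0721), A474 (0.0541) or A475 (0.0762). Summed to guard against exchange of reads, *Ugt1a6a* and *Ugt1a6b* were at 40.9 to 60.2 CPM with TMM factors in control and 33.0 to 35.1 in *Usp39*-HKO mice, without overlap. The ranges overlapped as CPM of the library total (37.7 to 54.9 against 33.4 to 40.0) and as summed FPKM (13.9 to 21.5 against 12.8 to 15.6), and the log2 ratio of the sums was -0.60, -0.36 and -0.35 on the 3 scales. *Ugt1a5* (log2 fold change -0.06, adjusted p = 0.866) and *Ugt1a9* (-0.27, adjusted p = 0.50) did not pass the test. Without TMM factors none of *Ugt1a1* (adjusted p = 0.0930), *Ugt1a6a* (0.0660) and *Ugt1a6b* (0.144) passed.

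Some markers of hepatocyte zones were lower in *Usp39*-HKO mice. Of 6 pericentral markers 3 fell, with summed FPKM of 3256 to 3587 in control and 1961 to 3413 in *Usp39*-HKO mice, and of 5 periportal markers 2 fell, with 1334 to 1421 and 970.3 to 1566. Both sums were lowest in A474, as were *Ugt2b1*, *Ugt3a1* and *Ugt3a2*. In A469 the pericentral sum (3413) was within the control range and the periportal sum (1566) above it. *Ugt2b1* (72.4 FPKM), *Ugt3a1* (4.97) and *Ugt3a2* (70.6) were below every control in A469 as well. The part of these markers in the *Ugt* falls was not tested. None of these markers was at 0 in all mice.

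The filter left 7 members untested. *Ugt1a7c* had 8, 9, 4 and 7 counts in control and 11, 13, 45 and 14 in *Usp39*-HKO mice. *Ugt1a10* had 7, 11, 6 and 5 counts in control and 7, 2, 2 and 1 in *Usp39*-HKO mice, and *Ugt1a2* had 5, 5, 4 and 7 in control and 1, 4, 5 and 3 in *Usp39*-HKO mice. Of these 7, *Ugt1a7c* was higher in every *Usp39*-HKO mouse, from few counts. *Gsto2* had at most 2 counts in a mouse and *Gstt4* at most 1, at a depth where 3 counts are 0.288 to 0.349 CPM. *Ugt2a1* and *Ugt2a2* had 0 counts in every mouse. On the same strand, 98.8% and 94.5% of their exon bases overlap each other or *Gm43638*. How reads in such bases were counted is not given, so these 0 counts do not show absence.

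Summed over all members, the balance of the families differed between the groups. The 21 *Gst* genes summed to 1252, 1060.3, 995 and 1107 FPKM in control mice and to 1465, 1803, 1964 and 2120.2 in *Usp39*-HKO mice. The 20 *Ugt* genes summed to 1417, 1075, 1118 and 1038 FPKM in control mice and to 724, 948, 1009 and 627 in *Usp39*-HKO mice. Neither pair of ranges overlapped. By subfamily, the *Ugt3a* sums were apart (137 to 181 FPKM in control and 29.3 to 75.5 in *Usp39*-HKO mice). The *Ugt2b* sums, the largest part, overlapped (646 to 1011 against 458 to 758). Those of *Ugt1a* (121 to 155 against 106 to 143) and *Ugt2a* (57.8 to 75.9 against 31.9 to 65.0) overlapped too. Within each mouse, where scaling to the library total cancels, the ratio of the *Gst* to the *Ugt* sum was between 0.884 and 1.07 in control mice. It was between 1.9 and 3.38 in *Usp39*-HKO mice, highest in A474. The size of this ratio depends on the scaling of FPKM to exon length. As CPM of the library total, the *Gst* sums were 1809 to 2238 and the *Ugt* sums 2650 to 3586 in control mice. In *Usp39*-HKO mice these sums were 2570 to 3443 and 1704 to 2593. These sums are descriptions with no test. *Gstm* was the largest part of the *Gst* sum, at 480 to 676 FPKM in control and 896 to 1381 in *Usp39*-HKO mice. The *Ugt3a* genes summed to 452 to 586 CPM with TMM factors in control and 75.6 to 229 in *Usp39*-HKO mice. Control mouse A468 had the highest control value for 17 of the 34 members tested, among them *Ugt2b5*, *Ugt2b35*, *Gstp1*, *Gsta2* and *Gstm1*.

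**Figure D5:**
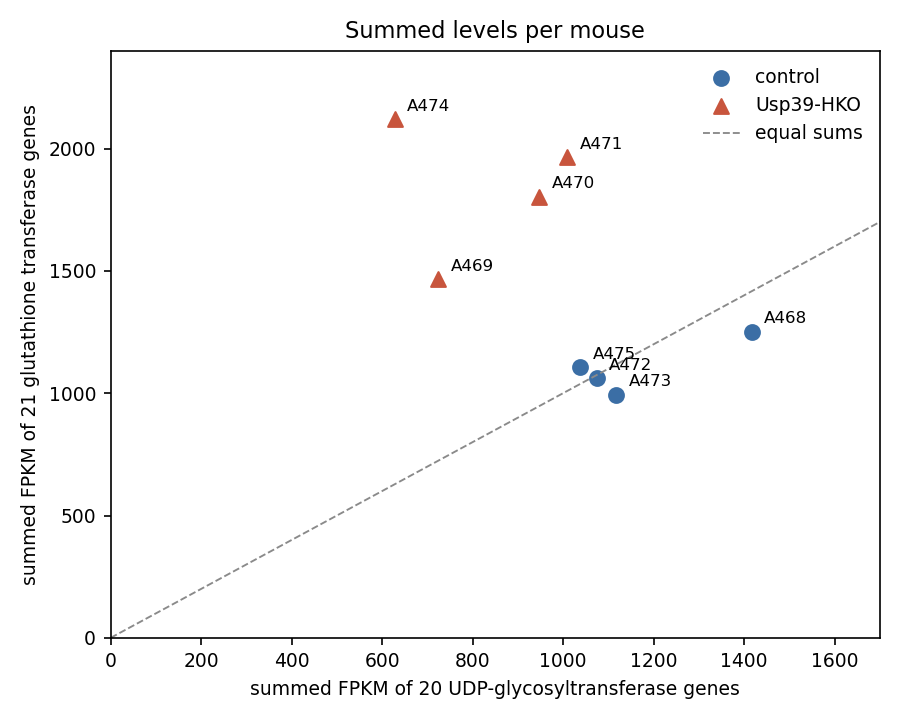
Summed FPKM of the 21 *Gst* genes against the summed FPKM of the 20 *Ugt* genes, 1 point per mouse (blue circles, control; orange triangles, *Usp39*-HKO), with the line of equal sums. The control mice lie near the line (ratios 0.884 to 1.07) and the *Usp39*-HKO mice above it (1.9 to 3.38).

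Among genes that supply or remove UDP-glucuronic acid, 2 passed the test. Of 11 tested, 1 rose and 1 fell (18.2% called, beside 22.5% of all genes), with a median log2 fold change of -0.18 (means ± SD with n = 4 here and in the next paragraphs). *Ugdh*, which oxidizes UDP-glucose to UDP-glucuronic acid, had 13.7 ± 7.57 FPKM in control and 17.7 ± 3.53 FPKM in *Usp39*-HKO mice (log2 fold change 0.12 ± 0.29 SE, adjusted p = 0.810), with A468 at 25.1 FPKM against 9.64 to 10.2 in the other controls. Without A468 it was 0.59 with an adjusted p of 0.0168. *Ugp2*, which makes UDP-glucose, was at 85.0 ± 14.9 FPKM in control and 86.5 ± 13.0 FPKM in *Usp39*-HKO mice (log2 fold change -0.22 ± 0.15 SE, adjusted p = 0.318). The phosphoglucomutase genes *Pgm1* (0.77 ± 0.14 SE, adjusted p = 0.00321) and *Pgm2* (-0.61 ± 0.14 SE, adjusted p = 0.0106) were the 2 that passed, in opposite directions. *Pgm1* had 4.39 ± 0.18 FPKM in control and 8.84 ± 1.81 FPKM in *Usp39*-HKO mice. The more abundant *Pgm2* had 101.7 ± 5.73 FPKM in control and 78.0 ± 13.5 FPKM in *Usp39*-HKO mice.

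Of 23 tested genes of glutathione synthesis and turnover, 2 rose and 6 fell (34.8% called, beside 22.5% of all genes), and the median log2 fold change was -0.17. *Gclc* and *Gclm*, the subunits of the rate-limiting ligase of glutathione synthesis, did not pass in the fit of all mice. *Gclc* had 69.4 ± 38.0 FPKM in control and 62.7 ± 17.6 FPKM in *Usp39*-HKO mice (log2 fold change -0.40 ± 0.30 SE, adjusted p = 0.384). *Gclm* had 41.9 ± 9.27 FPKM in control and 35.5 ± 5.61 FPKM in *Usp39*-HKO mice (log2 fold change -0.48 ± 0.16 SE, adjusted p = 0.0553) and passed as lower without A470 (adjusted p = 0.0445) or A472 (0.0334). *Gsr*, which regenerates glutathione from its disulfide, had a log2 fold change of -0.15 ± 0.13 (SE, adjusted p = 0.440). *Gpx3*, encoding a secreted glutathione peroxidase, rose, with 9.38 ± 1.52 FPKM in control and 24.2 ± 11.9 FPKM in *Usp39*-HKO mice (log2 fold change 1.11 ± 0.25 SE, adjusted p = 0.00946). *Gss*, which encodes the synthetase of the last step of glutathione synthesis, rose as well, with 10.9 ± 2.03 FPKM in control and 19.96 ± 3.02 FPKM in *Usp39*-HKO mice, no overlap and a log2 fold change of 0.64 ± 0.14 (SE, adjusted p = 0.00924). The aminopeptidase gene *Lap3* (-0.74 ± 0.14 SE, adjusted p = 0.00425) and the glutamyl transferase family gene *Ggt6* (-0.70 ± 0.17 SE, adjusted p = 0.0122) fell. The count of 2 genes higher depends on the scaling, being 8 without TMM factors and 6 by limma on log2(FPKM + 1).

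Of 21 tested genes of other conjugation steps and of conjugate export, 5 rose and 6 fell (52.4% called, beside 22.5% of all genes). The median log2 fold change was -0.10. The 5 include *Hpgds* and *Abcc1*, which entered the test only through the *Usp39*-HKO mice. *Mgst3* and *Hpgds*, a membrane-bound and a sigma class GST, rose. *Mgst3* had 3.99 ± 1.07 FPKM in control and 15.6 ± 6.97 FPKM in *Usp39*-HKO mice (log2 fold change 1.70 ± 0.27 SE, adjusted p = 0.00188). *Hpgds* had 0.422 ± 0.117 FPKM in control and 1.79 ± 0.885 FPKM in *Usp39*-HKO mice (1.81 ± 0.30 SE, adjusted p = 0.00242). It was below 0.5 FPKM in control mice A468, A473 and A475 and was tested only because of its level in *Usp39*-HKO mice. The fold change and adjusted p of *Hpgds* are therefore a description. *Mgst1*, the membrane-bound GST most abundant in liver, was at 811 ± 55.4 FPKM in control and 670.0 ± 99.9 FPKM in *Usp39*-HKO mice, with a log2 fold change of -0.50 ± 0.15 (SE, adjusted p = 0.0369) that kept its call only without A469 or A471. Left out in turn, A470 gave an adjusted p of 0.0766, A474 0.0690, A468 0.0977, A472 0.0688, A473 0.0847 and A475 0.0583. *Gstz1*, a GST gene outside the name rule of the members, fell (log2 fold change -0.49 ± 0.12 SE, adjusted p = 0.0144). Its FPKM did not overlap (111.3 to 134.4 in control, 96.9 to 111.1 in *Usp39*-HKO mice). Without TMM factors it did not pass (adjusted p = 0.0914). Of the exporters, *Abcc3*, which moves glucuronides into blood, fell, with 86.4 ± 16.2 FPKM in control and 51.8 ± 5.18 FPKM in *Usp39*-HKO mice (log2 fold change -0.96 ± 0.16 SE, adjusted p = 0.00234), and *Abcc6* fell as well (-1.03 ± 0.12 SE, adjusted p = 0.000591). *Abcc1* and *Abcc4*, which move conjugates out across the basolateral membrane, rose. *Abcc1*, below 0.5 FPKM in all 4 control mice and tested only because of its level in *Usp39*-HKO mice, had a log2 fold change of 0.95 ± 0.26 (SE, adjusted p = 0.0220) and lost its call without A473 (adjusted p = 0.0677), A474 (0.0599) or A475 (0.0704). *Abcc4* had 0.67 ± 0.20 (SE, adjusted p = 0.0312) and lost its call without A468 (adjusted p = 0.0651), A473 (0.0912), A474 (0.0873) or A475 (0.0804). *Abcc2*, the exporter of conjugates into bile, did not pass (-0.39 ± 0.14 SE, adjusted p = 0.0588) unless A470 was left out (adjusted p = 0.0250).

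Of 22 tested regulators, 4 rose and 6 fell (45.5% called, beside 22.5% of all genes), with a median log2 fold change of -0.20. *Nfe2l2*, which encodes NRF2, had 24.6 ± 2.34 FPKM in control and 39 ± 2.99 FPKM in *Usp39*-HKO mice and rose (log2 fold change 0.43 ± 0.09 SE, adjusted p = 0.00823). *Keap1*, which encodes its inhibitor, did not pass (0.12 ± 0.18 SE, adjusted p = 0.689). *Maff*, encoding a small MAF partner of NRF2, rose (1.48 ± 0.36 SE, adjusted p = 0.0141). *Nr1i3*, which encodes CAR, had 11.4 ± 1.83 FPKM in control and 5.35 ± 0.887 FPKM in *Usp39*-HKO mice, with no overlap and a log2 fold change of -1.31 ± 0.16 (SE, adjusted p = 0.000758). *Nr1i2*, which encodes PXR, did not pass (0.42 ± 0.17 SE, adjusted p = 0.0938) unless A472 was left out (adjusted p = 0.0195), and neither did *Ahr* (-0.18 ± 0.12 SE, adjusted p = 0.334). Among hepatocyte factors, *Hnf4a* (-0.23 ± 0.14 SE, adjusted p = 0.292) did not pass, *Onecut1* rose (1.22 ± 0.28 SE, adjusted p = 0.0108), and *Cebpa* (-0.67 ± 0.14 SE, adjusted p = 0.00747) and *Foxa3* (-0.46 ± 0.13 SE, adjusted p = 0.0233) fell. Of nuclear receptors of lipid and bile acid metabolism, *Ppara* (-0.83 ± 0.13 SE, adjusted p = 0.00209) and *Nr1h4*, which encodes FXR (-0.50 ± 0.15 SE, adjusted p = 0.0309), fell. The call of *Foxa3* was lost without A468 (adjusted p = 0.0583), A469 (0.0553), A471 (0.0519) or A474 (0.0547), and *Nr1h4* kept its call only without A469, with adjusted p between 0.0511 and 0.0855 when any other mouse was left out. Without TMM factors neither *Foxa3* (adjusted p = 0.252) nor *Nr1h4* (0.113) passed. Whether any of these levels bears on the members was not tested.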

How the data were processed

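Liver RNA of 4 *Usp39*-HKO and 4 control mice was extracted with TRIzol, prepared with the NEB Next Ultra kit and sequenced on a NovaSeq, with 1 library per mouse and no batch labelled. The submitters' processing notes name Trim Galore 0.6.1, FastQC 0.11.9, HISAT2, Picard, featureCounts and DESeq2 and the mm10 build, and the strandedness of the counting and its handling of reads that fit several genes are not given in the sources used here. The authors deposited raw counts per gene and mouse and FPKM, which recompute from counts, exon length and total count. Their own DESeq2 columns (mean, log2 fold change, standard error, statistic, p-values, a call) were not used.

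Counts were read once for each of 55385 gene identifiers, and each of the 41 member lengths equals its exon bases in GENCODE vM21 (GRCm38). edgeR 4.0.16 (R 4.3.3) with TMM factors (0.912 to 0.940 in control and 1.01 to 1.19 in *Usp39*-HKO mice) and 2 groups without covariates was fitted to all 14340 genes with FPKM of at least 0.5 in at least 4 mice, after tests on simulated data. Biological variation between mice was 0.179 as a common coefficient. Each standard error was derived from fold change and F statistic, and p-values measure the spread between these mice. Intervals and floors cover counting error only. Alternatives were DESeq2 1.42.0, other factors and filters, limma 3.58.1 on log2(FPKM + 1) and log2(FPKM + 0.1), each mouse left out, and, chosen after seeing the data, A474 and A475 left out together. Near-identical stretches were BLAST 2.17.0+ alignments of at least 150 bases at 97% identity between transcripts of different genes. The members and lists were chosen with earlier results of these data known. Members named in full are the most abundant tested member of each subfamily and the 10 largest rises and 10 largest falls past the threshold, and related genes are a preset set, apart from a gene not reported here, plus up to 3 per list with the largest change past the threshold. *Abcc1*, *Abcc4*, *Gss*, *Gstz1*, *Cebpa*, *Foxa3*, *Ppara* and *Nr1h4* were named after their values were seen.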

Additional observations from a re-analysis of the deposited data

Results flagged for a closer look

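In 96 groups of 4 mice (each member and each summed subfamily, by genotype), Dixon's test was run on the highest and the lowest mouse, and 7 values lay farther from the other 3 than the critical value at the 95% level allows, where chance gives about 1 in 20 groups. *Usp39*-HKO mouse A471 was low for *Ugt1a1* at 38.8 FPKM, against 53.5 to 55.4 in the other 3, and high for *Ugt1a7c* at 1.12 FPKM (45 counts, against 11 to 14). Control mouse A468 was high for *Ugt2b35* at 143 FPKM, against 52.8 to 65.3. *Ugt1a10* in *Usp39*-HKO mouse A469 was 0.318 FPKM from 7 counts, against 1 or 2 counts in the others. *Gstt4* rested on 1 count each in control mouse A472 (0.102 FPKM) and *Usp39*-HKO mouse A471 (0.106 FPKM). The summed *Gstt* level was 250 CPM with TMM factors in control mouse A472 and 216 to 222 in the other controls.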

How the results depend on the processing

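No paired analysis was possible because the labels give each mouse its own number and no numbers shared between the genotypes. Over 16 alternatives for each of 23 members named in full, 305 of 368 values kept direction and call, 52 lost the call, 8 gained it and 3 changed sign, all 3 for *Gsta3*, at 0.0727 without factors and at 0.0699 and 0.0707 by limma on log2(FPKM + 1) and log2(FPKM + 0.1). *Gsta1*, *Gsta2*, *Gsta4*, *Gstm2*, *Gstm3*, *Gstt1*, *Ugt2b1*, *Ugt3a1* and *Ugt3a2* kept their calls in all 16, *Gsta1* having entered the test only through the *Usp39*-HKO mice. Of counts and sums, 285 of 346 stayed close and 61 moved. *Gst* genes lower (2) were 1 without factors, 0 and 0 by the limma fits, 0 without A474 and A475, and 1 to 4 with 1 mouse left out (1 to 2 at the study's cutoff). *Ugt* genes lower (8) were 4 without factors, 3 and 3 by limma, 5 without A474 and A475, and 5 to 10 with 1 mouse left out; at the study's cutoff (10) they were 4, 3 and 3, and 1 was higher under filterByExpr and with no filter (*Ugt1a7c*). Among glucuronate genes (1 up, 1 down), 2 rose without factors and by either limma fit and 1 to 2 with 1 mouse left out, and 0 and 0 fell by limma, 0 without A474 and A475 and 1 to 2 with 1 mouse left out. Glutathione genes up (2) were 4 by DESeq2, 8 without factors, 5 with no filter, 6 and 7 by limma, 1 without A474 and A475 and 2 to 4 with 1 mouse left out, and those down (6) were 3 and 3 by limma, 3 without A474 and A475, 4 without factors and 4 to 7 with 1 mouse left out. For other conjugation, genes up (5) were 2 without A474 and A475 and 3 to 5 with 1 mouse left out, and genes down (6) were 3 without factors, 3 and 3 by limma, 3 without A474 and A475 and 4 to 6 with 1 mouse left out. Regulators up (4) were 6 without factors and by limma, 2 without A474 and A475 and 4 to 5 with 1 mouse left out, and those down (6) were 3 without factors, 3 and 3 by limma, 3 without A474 and A475 and 4 to 7 with 1 mouse left out. Log2 ratios of sums, scaled by TMM, by library total and as summed FPKM, were 0.37, 0.61 and 0.74 for all *Gst*, 0.16, 0.40 and 0.92 for *Gsta*, 0.73, 0.97 and 1.01 for *Gstm*, 0.35, 0.58 and 0.72 for *Gstt*, and -0.41, -0.19 and -0.18 for *Ugt1a*. Leaving out the factors moves all genes up by 0.23 in the median; the cause of the other shifts was not tested. The 7 untested members did not pass the filter on low FPKM, and 5 of them (*Ugt1a2*, *Ugt1a7c*, *Ugt1a10*, *Ugt2a1* and *Ugt2a2*) share exons with other genes.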
